A study of Mus musculus with 217 samples.

Results

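The Oas1 family of the mouse is a set of neighbouring genes for 2′-5′-oligoadenylate synthetases and their close relatives. The genes described here are the 6 rows named Oas1a, Oas1c, Oas1d, Oas1e, Oas1g and Oas1h, chosen by symbol, out of 53619 genes in the count tables. An oligoadenylate synthetase binds double-stranded RNA and makes short 2′-5′-linked adenylate chains. Interferon raises the genes of the active enzymes in most tissues. In the mouse the cluster has expanded. Oas1a and Oas1g encode active synthetases, while OAS1D is known from the oocyte, lacks the synthetase activity and dampens OAS1A.

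The study compared age, deletion of Tet2 (a dioxygenase that oxidizes 5-methylcytosine) and resveratrol, a plant polyphenol given in drinking water at 30 mg per L in DMSO, with DMSO alone for controls. Single metaphase II oocytes of mixed C57BL6/129 mice, collected after superovulation, made up 10 groups: 2 months wild type (18 oocytes) and Tet2 knockout (15), 6 months wild-type control (20) and resveratrol (14), 6 months knockout control (20) and resveratrol (20), 10 months wild-type control (20) and resveratrol (14), and 10 months knockout control (15) and resveratrol (15). Granulosa cell pools of the same background, from follicles punctured in the ovary after gonadotrophin priming, came as 3 pools in each of 6 groups: 2 months wild type and knockout label, and 10 months control and resveratrol of either genotype. A separate table held oocytes of C57BL6 mice, 11 of 6 months control, 6 of 10 months control and 9 of 10 months resveratrol. 1 more has a title that says resveratrol and a treatment tag that says control and entered no group, and 1 column, whose name fits the titles of more than 1 library, was left out. The labels name no animal for any library, do not say which part of Tet2 is deleted or in which cells, and give 500 granulosa cells per library in one place and 50 in another. The 18 oocytes titled as 2 months wild type carry a knockout genotype tag, and their titles were followed.

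Counts per library ranged from 3386039 to 8775154 in the oocytes of the mixed background and from 3470831 to 11358927 in the 27 C57BL6 oocytes used. In granulosa pools the 12 old libraries held 5995491 to 20537935 counts, while 5 of the 6 young ones held only 470647 to 749172 and the other, young knockout-labelled replicate 2, held 11595710. Tet2 itself was lower in knockout oocytes, at 0.941 to 1.38 counts-per-million (CPM) in the 5 knockout groups and 2.3 to 3.39 CPM in the 5 wild-type groups. In granulosa pools Tet2 did not follow the label, with group means of 12.1 to 15 CPM in the 3 knockout-labelled groups and 8.48 to 13.6 CPM in the 3 wild-type groups, so those pools are called knockout-labelled. The oocytes carried the oocyte markers at a sum of 21160 to 51167 CPM and the granulosa markers at 18 to 218 CPM, and the granulosa pools carried the granulosa markers at 1297 to 5662 CPM.

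Some of the 6 genes are so alike in parts that a read can match more than one of them. The following 60 coding bases come from the same place in each gene. This window was picked as the one without gaps that has the most positions identical in all 6. It is printed 5′ to 3′, with capitals where a base differs from that of Oas1a. In this window 51 of 60 positions are the same in all 6 genes.
Oas1a: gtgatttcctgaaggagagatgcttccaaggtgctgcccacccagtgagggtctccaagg
Oas1g: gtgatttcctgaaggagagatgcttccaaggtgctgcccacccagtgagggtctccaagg
Oas1c: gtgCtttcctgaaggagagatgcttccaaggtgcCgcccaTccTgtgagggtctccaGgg
Oas1d: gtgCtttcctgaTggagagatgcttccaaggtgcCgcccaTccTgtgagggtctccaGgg
Oas1e: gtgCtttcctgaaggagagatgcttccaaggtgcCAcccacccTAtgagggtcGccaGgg
Oas1h: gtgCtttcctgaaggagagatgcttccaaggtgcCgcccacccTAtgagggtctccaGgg

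Oas1a and Oas1g are identical in this stretch, and over their whole aligned coding sequence (1101 bases) they share 96.7% of bases, with a longest identical run of 231 bases. A pair of 150-base reads that falls inside that run cannot tell them apart. Oas1d and Oas1e are the next closest of the oocyte members at 89.6%. Oas1c shares 84.6% with Oas1d and 84% with Oas1e, and Oas1h shares 78.8% with Oas1c, 78.1% with Oas1d and 76.8% with Oas1e. Oas1a shares 70.9% to 75.4% with these 4 genes.

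Of all 150-base windows of the annotated transcripts, 67.6% of those of Oas1a and 75.9% of those of Oas1g occur in no other gene, and the remainder are shared between this pair. The share is 97.8% for Oas1c, whose remaining windows are shared with Gm43069, a gene on the opposite strand that covers 227 of its exon bases. For Oas1d, Oas1e and Oas1h every 150-base window is unique. At 50 bases the unique share falls to 42.4% for Oas1a and 54.3% for Oas1g, and is 84.9% for Oas1c, 89.3% for Oas1e, 93.8% for Oas1d and 99.5% for Oas1h. The authors' treatment of reads with several matches (not given in the sources used here) can move counts between such genes, and the library kit does not mark strand. The values of Oas1a and Oas1g are therefore uncertain as to which of the pair they belong to, and those of Oas1c may hold a part from Gm43069. The paralogs' sequence gives no such doubt for Oas1d, Oas1e and Oas1h at the full read length.

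**Figure D1:**
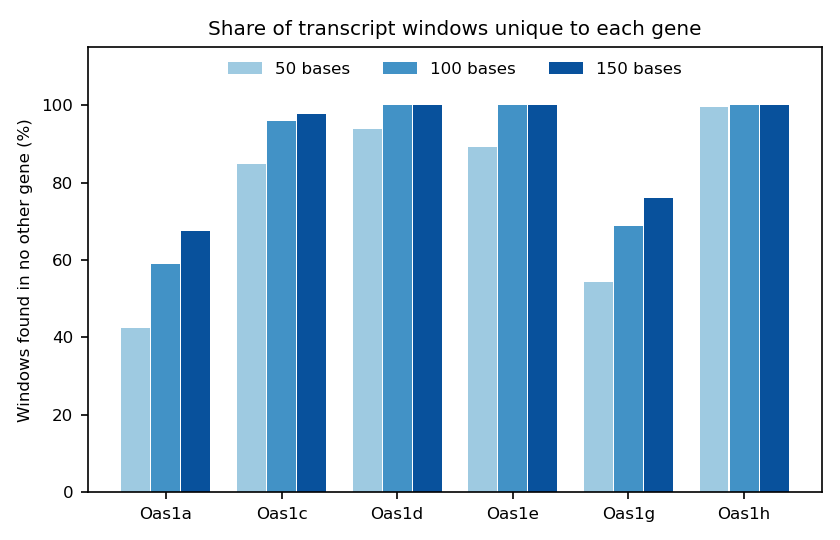
Share of annotated transcript windows of 50, 100 and 150 bases (bars) that occur in no other gene, in percent, for the 6 genes. Oas1a and Oas1g stay at 67.6% and 75.9% at 150 bases, while Oas1d, Oas1e and Oas1h reach 100%.

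All 8 annotated Oas1 genes lie within 135427 bases of chromosome 5 (GRCm38, GENCODE vM21). From low to high coordinate the members are Oas1e (120786226 to 120795530, minus strand), Oas1c (120800194 to 120812514, minus), Oas1h (120861421 to 120873506, plus), Oas1g (120876142 to 120887613, minus), Oas1a (120896256 to 120907521, minus) and Oas1d (120914536 to 120921652, plus). Oas1b and Oas1f stand between Oas1c and Oas1h. The 4 members with high counts in oocytes are thus not next to each other: the Oas1g and Oas1a pair lies between Oas1h and Oas1d.

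The RefSeq promoter table (GRCm38.p6) holds Oas1a, Oas1c, Oas1g and Oas1h. Their 120 bases before the start are shown to set the active synthetases Oas1a and Oas1g beside 2 members that were abundant in oocytes. Capitals mark the core of the interferon-stimulated response element, read as GAAA, any 2 bases and GAAA again, on either strand and with overlapping matches joined.
Oas1a, chr5:120907526-120907645, minus strand: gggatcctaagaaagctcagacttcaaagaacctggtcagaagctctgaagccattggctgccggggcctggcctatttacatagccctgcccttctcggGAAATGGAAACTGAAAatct
Oas1g, chr5:120887614-120887733, minus strand: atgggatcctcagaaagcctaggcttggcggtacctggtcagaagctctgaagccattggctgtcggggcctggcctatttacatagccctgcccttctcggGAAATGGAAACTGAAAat
Oas1c, chr5:120812515-120812634, minus strand: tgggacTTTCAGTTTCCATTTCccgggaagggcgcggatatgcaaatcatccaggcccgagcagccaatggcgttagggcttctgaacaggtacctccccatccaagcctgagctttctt
Oas1h, chr5:120861302-120861421, plus strand: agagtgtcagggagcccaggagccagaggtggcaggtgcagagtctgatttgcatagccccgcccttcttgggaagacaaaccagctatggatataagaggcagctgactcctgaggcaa

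In Oas1a and Oas1g a pair of overlapping cores lies just before the start, at -20 to -11 and -14 to -5 in Oas1a and at -18 to -9 and -12 to -3 in Oas1g. Oas1c has the same pair in the opposite direction and farther away, at -114 to -105 and -108 to -99. The printed Oas1c stretch reaches to the annotated start of Oas1b, which begins at 120812635 on the plus strand. This pair thus also lies just before Oas1b and reads in the direction of Oas1b, as the pairs of Oas1a and Oas1g do for those genes. No core occurs in the 300-base window of Oas1h. Of 32851 promoters of that length in the table, 3.44% hold a core on either strand. These matches describe letters and show no binding.

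In metaphase II oocytes 4 of the 6 members were abundant and the other 2 were near the limit of counting. Over all oocytes of the 10 groups Oas1d had a mean of 4756 ± 960 CPM (SD) and had rank 13 of 53619 genes by mean CPM. Oas1e stood at 1572 ± 414 CPM (rank 74), Oas1c at 402 ± 129 CPM (rank 398) and Oas1h at 215 ± 67.3 CPM (rank 864). Each of these 4 had counts in every oocyte. The synthetase genes Oas1a and Oas1g averaged 1.69 ± 5.67 and 0.340 ± 0.497 CPM, with 0 counts in 55 and 78 of the oocytes. Together the 6 genes took 0.698% of all counts of these oocytes, and Oas1d made up 68.4% of that share, Oas1e 22.6%, Oas1c 5.80% and Oas1h 3.1%.

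Levels between genes can be compared per length of exon. On that scale the median over these oocytes was 2272 CPM per kb for Oas1d (range 1276 to 3792), 848 for Oas1e (457 to 2039), 159 for Oas1c (80.8 to 431) and 121 for Oas1h (50.3 to 283). Oas1d exceeded Oas1e, and Oas1e exceeded Oas1c, in every oocyte. Oas1c and Oas1h overlapped widely, with Oas1c the higher in 138 oocytes (80.7%). Among the other Oas genes, Oas1f followed at a median of 14.1 CPM per kb and Oas1b, the flavivirus resistance gene that many laboratory strains carry in a truncated form, at 6.69. Oasl1, Oas3, Oasl2 and Oas2 had medians between 0 and 0.784.

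The 27 C57BL6 oocytes, counted in their own table, had the first 2 places of this order as well. Oas1d exceeded Oas1e, and Oas1e exceeded Oas1c, in 27 of 27. Their medians were 1956 CPM per kb for Oas1d, 808 for Oas1e and 161 for Oas1c, and Oas1h ranged from 115.2 to 247 CPM per kb (median level 291 CPM, not per length). Oas1c was above Oas1h per length in 14 of 27. Oas1a and Oas1g had medians of 0.169 CPM per kb there.

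**Figure D2:**
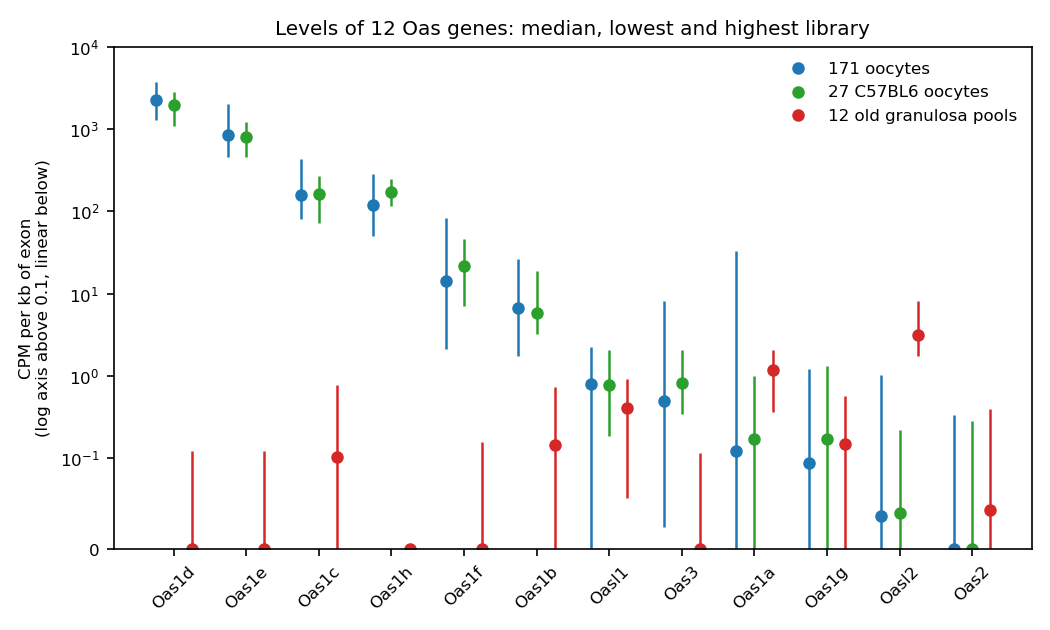
Level of 12 Oas genes in CPM per kb of exon (log axis above 0.1, linear below) in the oocytes of the 10 groups, 27 C57BL6 oocytes and 12 old granulosa pools. Points are medians and lines run from the lowest to the highest library. Oas1d, Oas1e, Oas1c and Oas1h lie above 50 in every oocyte and below 1 in every old pool.

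Oocyte and granulosa sums of the 6 conditions present in both cell types were then compared, with condition as a block. Of the 6 members, 4 were higher in oocytes and none was lower, where over all genes 87.2% of those tested differed in this comparison (42.8% higher in oocytes), so that a call alone says little here and the size is the result. In pooled counts of 97 oocytes and 18 pools, Oas1d was 8420-fold higher in oocytes (95% counting interval 6902 to 10383), Oas1e 5801-fold (4349 to 7924) and Oas1c 795-fold (645 to 991). Oas1h had 103516 counts in these oocytes and 3 in the pools, a ratio of 14983 with an interval of 5127 to 72658. These folds rest on the young pools for Oas1d, Oas1e and Oas1h. Over the 4 old conditions alone (64 oocytes, 12 pools) Oas1d was 181540-fold higher (70901 to 666270) on 4 pool counts. Oas1e was 63174-fold higher (24673 to 231860) on 4, and Oas1c 901-fold (714 to 1154). Oas1h had 0 counts in those pools. With that 0 set to 3 counts its fold was 13862, with a counting interval from 11273 upward. The fitted log2 differences were 14.49 ± 1.62 (SE) for Oas1d, 13.26 ± 1.38 for Oas1e, 10.33 ± 0.53 for Oas1c and 14.32 ± 0.54 for Oas1h, with adjusted p of 3.3e-06, 1.7e-06, 2.2e-09 and 2.8e-10 in edgeR. The median over all genes was -0.13. The family was chosen as one with oocyte-specific members, and Oas1d, Oas1e and Oas1h had few pool counts. The direction could thus hardly be otherwise, so these p-values are no support and the levels are the result.

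Oas1a and Oas1g, the active synthetases, did not share this pattern. Oas1a had 240 counts in those 97 oocytes (0.550 CPM) and 387 in the 18 pools (2.04 CPM), and Oas1g had 102 (0.234 CPM) and 89 (0.470 CPM). Their log2 differences of -1.01 ± 0.55 (adjusted p = 0.105, edgeR) and -0.18 ± 0.68 (adjusted p = 0.808) did not pass. Oas1a was called lower in oocytes at adjusted p = 0.0068 with library totals in place of scaling factors, at 0.042 without the condition as a block, at 0.042 without the 2-month wild-type condition and at 0.040 without the 5 shallow libraries. Since both genes share windows, it is uncertain how these counts divide between them.

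The rest of the pathway differed between the cell types gene by gene. Of the 6 other Oas genes 4 were higher in oocytes (Oas1f, Oas1b, Oas3 and Oasl1) and 2 lower (Oasl2 and Oas2). Oasl2, an interferon-stimulated relative of the synthetase genes, had 22.9 CPM in the pools and 0.420 CPM in the oocytes. Of 9 sensors of double-stranded RNA and their adaptors, 3 were higher and 4 lower in oocytes. Adar, which edits double-stranded RNA, was higher at 3.08 ± 0.18, and Ticam1, an adaptor of the receptor TLR3, was lower at -4.40 ± 0.31.

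Of 14 genes for interferon receptors and their signalling, 3 were higher and 9 lower in oocytes, with a median of -3.42. Socs1, a brake on the pathway, was higher at 6.03 ± 0.22, and the receptor chain Ifnar2 was lower at -9.37 ± 0.35. Of 18 interferon-stimulated genes 16 could be tested, and 3 were higher and 12 lower, with a median of -4.06. Ifi27 was the one of lowest p, at -10.18 ± 0.42. These counts stand beside a background of 44.4% of all genes lower in oocytes.

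The level of each abundant member moved within narrow limits across the 10 oocyte groups. For Oas1d the 2-month oocytes ranged from 4155 to 6105 CPM in wild type (median 4798) and from 3294 to 5108 in the knockout (4313). At 6 months the ranges were 3718 to 5958 in wild-type controls (median 4591), 4578 to 7664 with resveratrol (6119), 2578 to 7340 in knockout controls (5462) and 3599 to 6623 in the knockout with resveratrol (5350). At 10 months they were 3328 to 6491 in wild-type controls (median 4595), 3304 to 5136 with resveratrol (3865), 3194 to 4627 in knockout controls (3870) and 3070 to 4967 in the knockout with resveratrol (3975). Every group overlapped every other, except that the 2-month knockout and 3 of the 10-month groups met the 6-month wild-type resveratrol group only at its lower end. The highest and the lowest group median differed 1.58-fold.

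The other 3 spread similarly. Oas1e had group medians between 1172 CPM (10-month knockout with resveratrol) and 1887 CPM (6-month knockout controls). Oas1c ran from 279 CPM in 2-month wild type to 477 CPM in 10-month wild type with resveratrol, where 1 oocyte reached 1036 CPM. Oas1h ran from 168 CPM in 6-month wild-type controls to 279 CPM in the 2-month knockout. Within a group the coefficient of variation between oocytes was 10.3% to 19.7% for Oas1d, 14.6% to 28.2% for Oas1e, 18.9% to 31.5% for Oas1c and 16.8% to 34.3% for Oas1h.

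**Figure D3:**
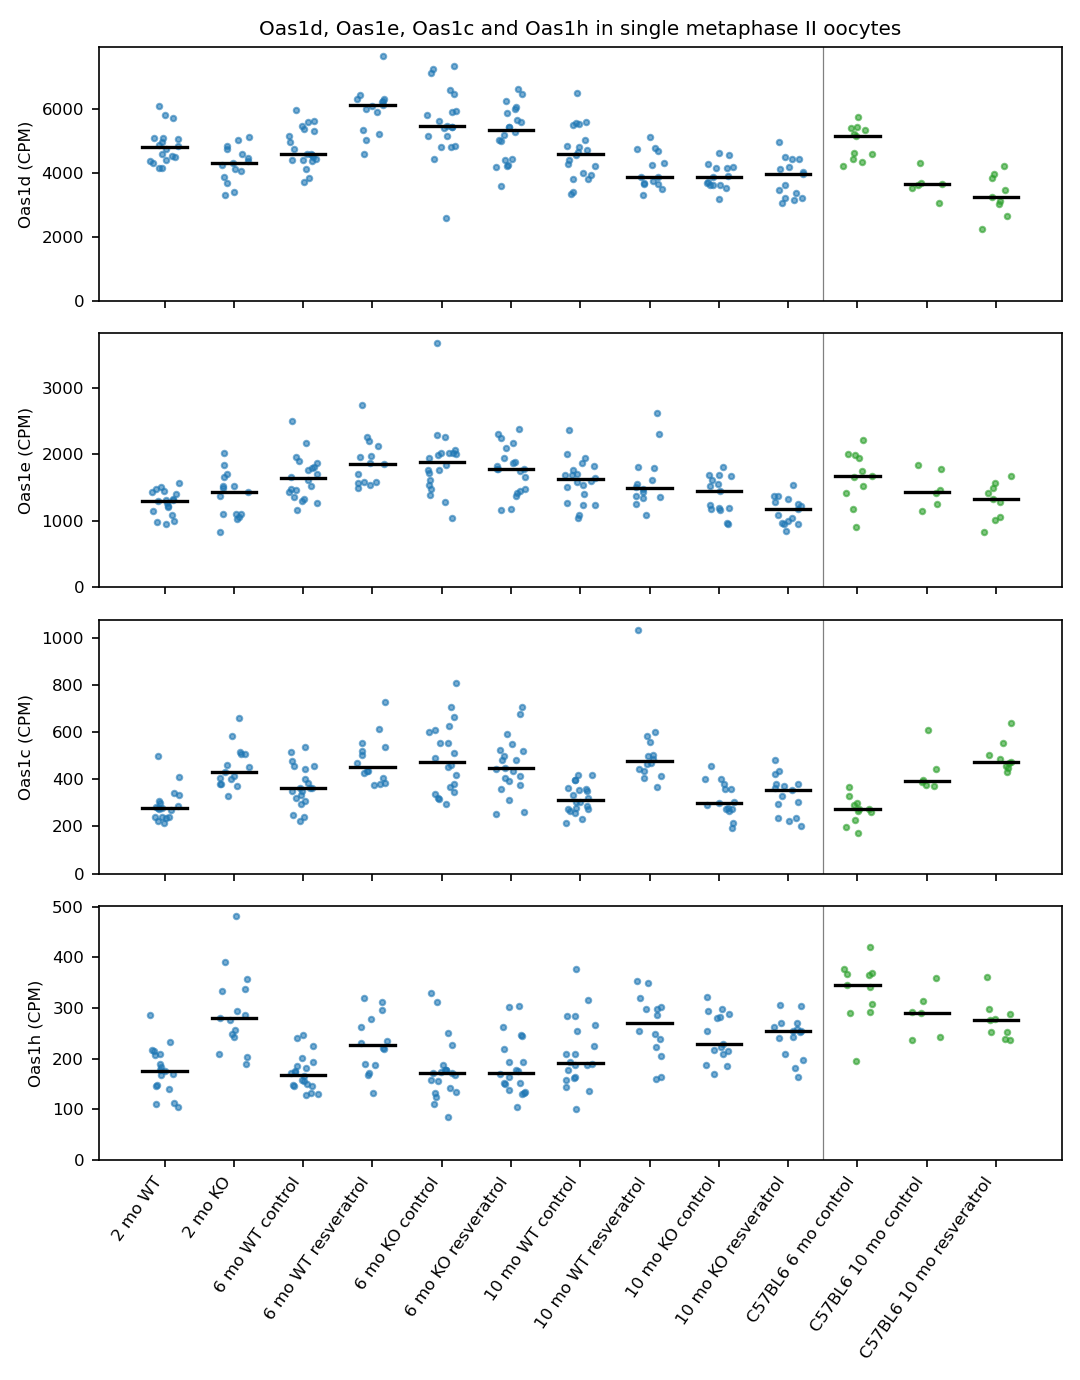
CPM of Oas1d, Oas1e, Oas1c and Oas1h in each single oocyte (points) of the 10 mixed-background groups (blue) and 3 C57BL6 groups (green), with the group median (line). Values of the mixed-background groups overlap for each gene, and in the C57BL6 oocytes Oas1c lies higher and Oas1d lower at 10 than at 6 months.

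With no animal named, the oocytes of a group were summed to 1 value, and the 10 sums were fitted with age, genotype and treatment as terms. None of the 6 members passed an adjusted p of 0.05 in edgeR in any of the 6 comparisons, and none did in DESeq2. Few genes passed at all: 0.00481% of the 20806 tested for 10 against 2 months and likewise for 10 against 6 months, 0.139% for genotype, and 0% for 6 against 2 months, for resveratrol and for the interaction of resveratrol with genotype. At an unadjusted p under 0.05 edgeR had 2 members for 10 against 6 months, 1 for 6 against 2 months, 1 for the interaction and 0 in the other 3. DESeq2 had 3, 2, 1 and 0. The share of all genes at that unadjusted p was not computed. These p-values measure the spread between group sums, which may share animals or batches.

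Between 6 and 10 months the members differed in direction. Summed per group, Oas1d was lower at 10 months in 4 of 4 matched pairs of groups, by log2 -0.55 to -0.05, and Oas1e in 4 of 4, by -0.63 to -0.05. Oas1h was higher in 4 of 4, by 0.20 to 0.44, and Oas1c was lower in 3 of 4. The fitted values were -0.37 ± 0.11 (SE) for Oas1d (adjusted p = 0.175, edgeR), -0.32 ± 0.11 for Oas1e (adjusted p = 0.220), 0.33 ± 0.15 for Oas1h (adjusted p = 0.313) and -0.27 ± 0.16 for Oas1c (adjusted p = 0.425), against a median of all genes near 0. None passed. The column names also carry a leading number within each group whose meaning is not given. When the oocytes were summed by group and number, to 26 sums, a choice made after seeing the data, 4 members passed: Oas1d at -0.42 (adjusted p = 0.0016), Oas1e at -0.36 (0.0038), Oas1h at 0.36 (0.029) and Oas1a at -2.22 (0.045), while Oas1c did not (0.063). If the numbers do not mark separate animals, those sums are not independent and these p-values are too small. The share of all genes passing with those sums was not computed, so the number of members has no background beside it.

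Between 2 and 6 months Oas1e was higher at 6 months in both matched pairs, by log2 0.38 and 0.40, with a fitted difference of 0.39 ± 0.15 (adjusted p = 0.515, edgeR). By group and number its difference was 0.41 (adjusted p = 0.030), the only member to pass there, again with no share of all genes computed. The fitted values of Oas1d, Oas1c and Oas1h were 0.18 ± 0.15, 0.08 ± 0.21 and -0.43 ± 0.20. Between 2 and 10 months the 4 genes ranged from -0.19 ± 0.21 for Oas1c to 0.07 ± 0.15 for Oas1e, and none passed (adjusted p between 0.623 and 0.870, edgeR).

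For Tet2 genotype the fitted differences were -0.14 ± 0.10 for Oas1d, -0.13 ± 0.10 for Oas1e, 0.02 ± 0.14 for Oas1c and 0.08 ± 0.14 for Oas1h (adjusted p between 0.589 and 0.971, edgeR). Oas1d was lower in knockout sums in 4 of 5 strata, and Oas1c ranged from -0.64 to 0.66 over the strata. In 2-month oocytes Oas1c had 292 CPM in wild-type and 462 CPM in knockout sums, and Oas1h 177 and 298 CPM, whereas in 10-month resveratrol groups Oas1c had 520 CPM in wild type and 334 CPM in the knockout.

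For resveratrol the fitted differences were -0.01 ± 0.11 for Oas1d, -0.05 ± 0.11 for Oas1e, 0.26 ± 0.16 for Oas1c and 0.20 ± 0.15 for Oas1h (adjusted p = 0.9998 for each, edgeR). Oas1h was higher with resveratrol in 4 of 4 strata, by log2 0.01 to 0.41. The interaction with genotype was -0.59 ± 0.23 for Oas1c (adjusted p = 1, edgeR). In wild type Oas1c went from 373 to 484 CPM at 6 months and from 321 to 520 CPM at 10 months with resveratrol. In the knockout it went from 489 to 460 CPM and from 317 to 334 CPM. These are group sums, and the interaction did not pass.

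**Figure D4:**
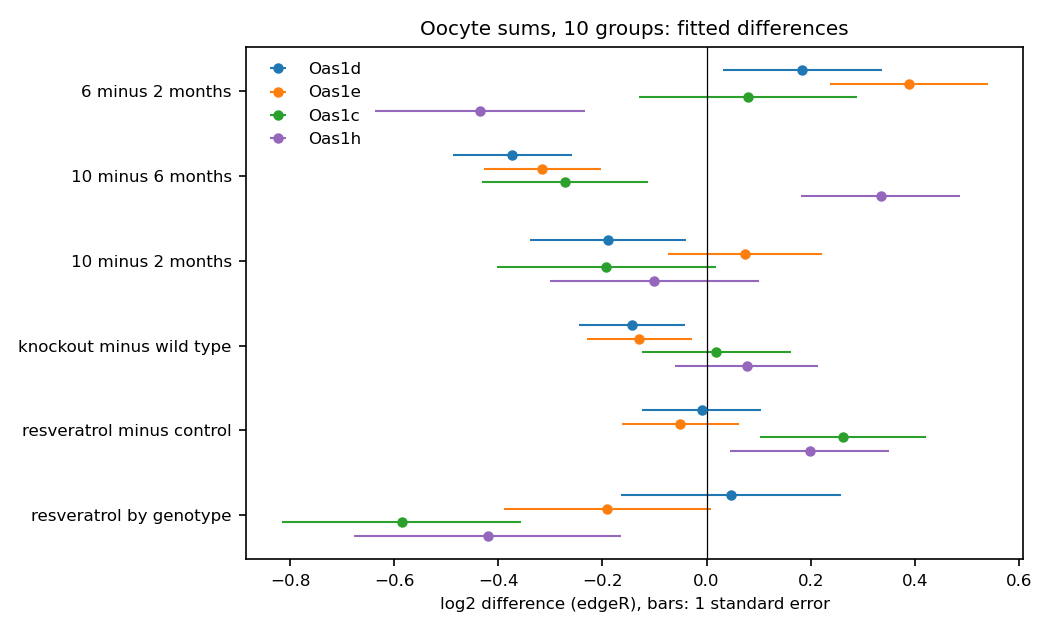
Fitted log2 differences (points) with 1 approximate standard error (bars) of Oas1d, Oas1e, Oas1c and Oas1h in the 6 comparisons over 10 oocyte group sums. Oas1d and Oas1e lie at -0.37 and -0.32 and Oas1h at 0.33 for 10 minus 6 months, and no point passed the adjusted test.

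Oas1a and Oas1g stayed near 0 in most oocytes, with a few exceptions for Oas1a. In 7 oocytes of the 10 groups Oas1a reached at least 10 CPM, 2 of them in 6-month knockout controls and 5 in the 6-month knockout with resveratrol. The highest had 282 counts (61.6 CPM) beside 2 counts of Oas1g, and the next 23.8 CPM. Oas1g exceeded 2.8 CPM in no oocyte of the 10 mixed-background groups (the highest C57BL6 oocyte had 3.05 CPM), and the mixed-background oocyte with this highest value, in the 6-month knockout controls, had 43 counts of Oas1a. In the summed groups Oas1a was the least steady member, from 0.147 to 7.64 CPM. Its fitted difference for 10 against 6 months was -2.01 ± 1.1 (adjusted p = 0.402, edgeR).

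Markers of the somatic follicle cells were also highest in the same 2 groups. The summed level of 6 cumulus expansion markers was 0.496 to 176 CPM in 6-month knockout controls and 0 to 52.4 CPM in the 6-month knockout with resveratrol, and at most 14.2 CPM in the other 8 groups. Each of the 6 had counts in those 2 groups, while 1 to 4 of them were at 0 in every other group. The sum of 10 granulosa markers was 19.9 to 218 CPM and 45.5 to 131 CPM in the same 2 groups and 18 to 114 CPM in the others. Macrophage and leukocyte markers reached 338 and 325 CPM there and up to 202 CPM elsewhere. In the fit over group sums the 4 testable cumulus markers had a median of -3.83 and the 8 testable granulosa markers one of -2.82 for 10 against 6 months, with none of either past the test. This match is by group, and the single oocytes high in Oas1a were not matched to the markers. In the 12 old granulosa pools Oas1a had at most 3.88 CPM, while the cumulus expansion markers summed to 764.5 to 3104 CPM. The part of such cells in the Oas1a values was not tested.

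The 4 abundant members did not vary together to the same degree from oocyte to oocyte. After each group's mean was subtracted, Pearson's r of log2(CPM + 1) over the oocytes of the 10 groups was 0.66 between Oas1d and Oas1e and 0.61 between Oas1c and Oas1e, and 0.25 to 0.29 for the other 4 pairs. The oocytes share their group's preparation, and r carries depth and composition effects that all genes share. Ranks were taken among 6183 other genes with a mean of at least 10 CPM, with numbered gene models left out. For Oas1d the 3 genes of highest r were Taz (0.66), Oas1e (0.66) and Wdr20 (0.61). For Oas1e they were Astl (0.67), the oocyte protease ovastacin, then Oas1d (0.66) and Nlrp14 (0.63). For Oas1c they were Hspa5 (0.70), the chaperone of the endoplasmic reticulum, Nlrp14 (0.64) and Kif4 (0.63). For Oas1h they were Tcl1b3 (0.37), Obox5 (0.35) and Oog1 (0.34). In 26 C57BL6 oocytes of the 3 groups the pairs ordered otherwise, with 0.73 for Oas1e and Oas1h, 0.70 for Oas1c and Oas1h, 0.59 for Oas1d and Oas1e and 0.55 for Oas1c and Oas1e.

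In the C57BL6 oocytes the members were compared by group sums with no test, since each group gives 1 sum, and 2-fold was taken as the mark. None of the 4 members with at least 1 CPM reached it, where 12.9% of genes did between ages and 3.8% with resveratrol. Intervals given here cover counting error only. Among those 4, Oas1c had the widest change with age, from 271 CPM in the 6-month to 458 CPM in the 10-month control sum (log2 0.76, interval 0.72 to 0.79). The single 6-month oocytes ranged from 171.1 to 366 CPM (median 273) and the 10-month ones from 372 to 610 CPM (393), so the groups did not overlap. Oas1d went the other way, from 4942 to 3636 CPM (log2 -0.44, interval -0.45 to -0.43). Its 6-month oocytes lay between 4209 and 5749 CPM (median 5164) and its 10-month oocytes between 3064 and 4322 CPM (3645), overlapping at the edge only. Oas1e and Oas1h changed by -0.14 and -0.18. The median of all genes was 0.10 in this comparison and moved with the scaling. With composition factors Oas1c was at 0.64 and Oas1d at -0.55.

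The order of Oas1c and Oas1h per length differed between these groups: Oas1c was above Oas1h in 0 of 11 oocytes at 6 months, in 4 of 6 controls at 10 months and in 9 of 9 with resveratrol. In the mixed background Oas1c was above Oas1h in 19 of 20 6-month and 12 of 20 10-month wild-type controls. The strain tables were counted separately, and their difference in the age response was not tested. Resveratrol in 10-month C57BL6 oocytes came with small differences of the sums, 0.12 for Oas1c, -0.12 for Oas1d, -0.24 for Oas1e and -0.11 for Oas1h. The oocytes of the resveratrol group ranged from 431 to 640 CPM for Oas1c and from 2232 to 4216 CPM for Oas1d, and overlapped the controls for both.

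In granulosa pools Oas1d and Oas1e were detected chiefly in the 5 shallow young libraries. In 2-month wild type Oas1d had 30, 7 and 20 counts in the 3 pools (46.9, 14.9 and 40.0 CPM) and Oas1e had 11, 5 and 12 (17.2, 10.6 and 24 CPM). In the 2-month knockout label Oas1d had 14, 0 and 22 counts (18.7, 0 and 30.5 CPM) and Oas1e had 5, 0 and 9, the pool at 0 being the deep replicate 2. In the 12 old pools Oas1d had 4 counts in all (3 in 1 knockout-labelled control pool and 1 in a knockout-labelled resveratrol pool) and Oas1e had 4, all in 1 wild-type control pool. Oas1h had 3 counts in the young pools and 0 in the 12 old ones.

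Of the 4 members that could be tested, 2 were lower in old than young wild-type controls, where 1.53% of all genes were called (0.683% lower). Both, Oas1d and Oas1e, passed the low-count filter only through the shallow young pools. No old pool had more than 0.246 CPM of Oas1d or 0.217 CPM of Oas1e. With either label a call could thus hardly go the other way, and the levels are the result. With the old group at 0 set to 3 counts over the group, Oas1d was 463-fold lower in the sums (interval from 365 upward, adjusted p = 0.00645, edgeR). Oas1e was lower by a ratio of 170.8 (interval 59.7 to 670, adjusted p = 0.0406, edgeR). In the knockout label the same 2 were lower, where 5.17% were called (1.08% lower). There Oas1d had a ratio of 41.2 (13 to 209, adjusted p = 0.0103, edgeR). Oas1e, with its old group at 0 set likewise, was 16-fold lower (interval from 11.4 upward, adjusted p = 0.0201, edgeR). With DESeq2 both calls in the knockout label were lost (adjusted p = 0.0863 for Oas1d and 0.0949 for Oas1e), as was that of Oas1e in wild type (0.180), and in a model of the 2 knockout-labelled groups alone neither gene passed the filter on low counts. The Oas1e call in wild type was lost without any one of the 6 pools (adjusted p 0.0886 to 0.161), and in the knockout label it was lost without young replicate 3 (0.113), old control replicate 1 (0.0751) or old control replicate 2 (0.0740). The Oas1d call in the knockout label was lost without young replicate 3 (adjusted p = 0.0673). In the young knockout-labelled group the deep pool had 0 counts of both genes, and with it as the only young pool no member passed.

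Oocyte markers moved with these calls. The summed level of 14 oocyte markers was 157 to 413 CPM in the 5 shallow young pools, with none of the 14 at 0, and 1.45 to 7.17 CPM in the 12 old pools, where Zp2 and Nlrp5 were at 0. It was 1.29 CPM in young knockout-labelled replicate 2, with 9 of 14 at 0. Oas1d counts were 11.6% of the oocyte marker counts in the shallow young pools and 13.4% of them in the oocytes of the 10 groups. Per count of Gdf9, a growth factor of the oocyte, Oas1d had 0.412 counts in the shallow pools (interval 0.320 to 0.526) and 0.534 in 2-month oocytes. Oas1e per Oas1d was 0.452 (0.306 to 0.657) in the shallow pools and 0.292 in 2-month oocytes. In the old pools 203 counts of Gdf9 stood beside 4 of Oas1d, a ratio of 0.0197 (0.00532 to 0.0512), against 0.674 in 10-month oocytes. Per the labels' protocols the cells were passed through a 40 µm strainer to hold oocytes back. The part of oocyte RNA and of library depth in the age difference was not tested, and depth, age and oocyte markers cannot be told apart in wild type, where all 3 young pools are shallow.

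Oas1a, in contrast, was the main member of the old pools. It made up 70.6% of their 527 counts of the 6 genes, and Oas1g 14.4% and Oas1c 13.5%. Oas1a had 15, 33 and 21 counts in wild-type controls (2.5, 1.79 and 1.42 CPM), 39, 12 and 9 with resveratrol (2.59, 1.00 and 0.689 CPM), 46, 47 and 48 in knockout-labelled controls (3.77, 3.88 and 2.34 CPM), and 18, 34 and 50 in the knockout label with resveratrol (0.897, 2.06 and 3.63 CPM). In the young pools it had 0 counts in each wild-type pool and 0, 14 and 1 in the knockout-labelled ones. The 3 young wild-type pools together allow a level of up to 1.86 CPM at 0 counts. That is above the 1.76 CPM of Oas1a in the summed old wild-type controls, so their depth cannot show a difference from that level. No age difference of Oas1a passed: the adjusted p was 0.280 in wild type and 0.201 in the knockout label (edgeR), with unadjusted p of 0.0377 and 0.0321.

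Oas1c had 0 to 29 counts in the old pools, and its 71 counts there came without matching counts of Oas1d. The ratio of Oas1c to Oas1d was 17.8 in old pools (interval 6.64 to 66.9) and 0.0881 in 10-month oocytes. In the shallow young pools it was 0.140 (0.0717 to 0.251), and in 2-month oocytes 0.0817. Its age difference did not pass in wild type (adjusted p = 0.612, edgeR) or in the knockout label (0.250).

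**Figure D5:**
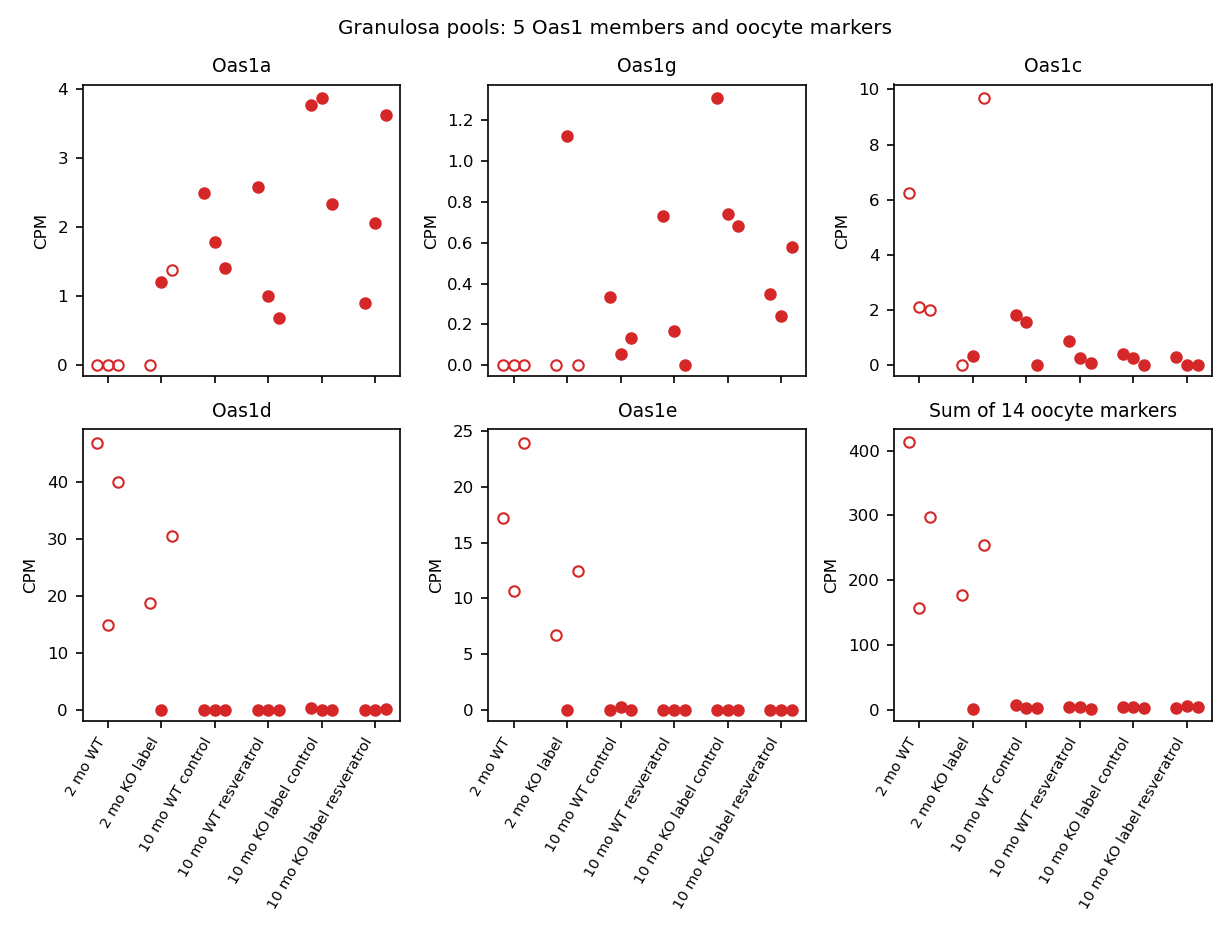
CPM of Oas1a, Oas1g, Oas1c, Oas1d and Oas1e and the summed CPM of 14 oocyte markers in each of the 18 granulosa pools (points) by group, with open points for the 5 shallow young libraries. Oas1d, Oas1e and the oocyte markers are high only in open points, where Oas1g is at 0. The depth of those 5 libraries together allows up to 0.973 CPM at 0 counts.

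No member passed for resveratrol or the genotype label in granulosa pools, by edgeR or DESeq2. Of all genes, 1.62% were called for resveratrol in old wild type, 0.0285% in the old knockout label, 0.114% for the label in young pools, 3.86% in old controls and 1.07% with resveratrol. No member had an unadjusted p under 0.05 in these 5 comparisons in edgeR. Oas1a differed by log2 -0.14 ± 0.62 with resveratrol in wild type, -0.64 ± 0.59 in the knockout label, 1.01 ± 0.60 by label in old controls (adjusted p = 0.412) and 0.51 ± 0.60 by label with resveratrol. For young pools its fitted value rests on a group at 0 and is not given. Oas1g, which had too few counts for the test, had 5 counts in wild-type and 39 in knockout-labelled old control pools, a ratio of 6.83 (counting interval 2.69 to 22.2). In the old resveratrol pools it had 13 and 19 counts, a ratio of 1.16 (0.545 to 2.56). Summed markers of macrophages and other leukocytes were 77.8 to 127 CPM in the wild-type and 1185 to 1539 CPM in the knockout-labelled old control pools. They were 815 CPM in young knockout-labelled replicate 2, the one young pool with Oas1g counts (13), and 10.9 to 30.0 CPM in the other 5. Those 5 are the shallow pools, where 0 counts together allow up to 0.973 CPM, above the 0.435 CPM of Oas1g in the old pools. The part of macrophages and other leukocytes in the levels of Oas1a and Oas1g was not tested. The age difference did not depend on the label at the test's threshold for Oas1d or Oas1e (adjusted p = 0.798 and 0.885, edgeR, where 0.137% of genes were called), and for resveratrol by label no member passed (0.159% called).

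Among the other genes of the pathway few passed in any of these comparisons. Of the 13 testable interferon-stimulated genes Ifitm3 was higher in old than young knockout-labelled pools (log2 2.22 ± 0.33, adjusted p = 0.00071, edgeR) and higher in the knockout label in old controls (1.43 ± 0.29, adjusted p = 0.0071). Lgals3bp was lower by label with resveratrol (-1.53 ± 0.36). Of 9 sensors and adaptors Mavs, the mitochondrial adaptor of the RIG-I pathway, was lower with resveratrol in old wild type (-1.30 ± 0.31, adjusted p = 0.040) and lower in the knockout label in old controls (-1.14 ± 0.30). None of the 3 testable other Oas genes or the 14 receptor and signalling genes passed in granulosa pools. In oocyte sums Bst2 was lower in the knockout (-1.37 ± 0.19, adjusted p = 0.036), and no other gene of these lists passed in any of the 6 comparisons.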

How the data were processed

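The deposited tables hold raw counts per gene for single oocytes of 10 groups, 18 granulosa pools and C57BL6 oocytes, of which 1 column (its name fits more than 1 title) was not used. Per the labels' protocols libraries were made by Smart-seq2 and sequenced as 150-base pairs. Per the submitters' processing notes the tools were HISAT2 2.1.0, featureCounts and DESeq2, with the mm10 build. The setting for multiply matched reads was not among these (not given in the sources used here).

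CPM (counts-per-million) is relative to a library's total. The authors' counts were tested with edgeR 4.0.16 (quasi-likelihood, TMM factors, filterByExpr with a minimum count of 10) in R 4.3.3, with Benjamini-Hochberg adjustment over all genes tested and a threshold of 0.05, after the code was tested on simulated data. The SE given after ± for a fitted log2 difference is approximate. It is the absolute difference divided by the square root of the test's F statistic, and can depart from the printed p. The 18 granulosa pools were fitted in 1 model of 6 group means (17558 genes). Oocytes were summed to 10 group sums and fitted with age, genotype and treatment as terms (20806 genes, 5 residual degrees of freedom), since no animal is named. For the cell types, 12 sums were fitted with condition as a block (24670 genes). The labels do not say that libraries came from separate animals, so the p-values describe only how far these samples spread, a spread that may be technical. C57BL6 groups gave 1 sum each and no test: the log2 ratio had 0.5 counts added, and genes at 1 CPM or more in 1 of the groups were counted at 2-fold. Intervals are exact 95% intervals for counting error only, and a group at 0 was set to 3 counts over the group for a fold. Amplified reads are not independent molecules.

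Windows and coding identity (aligned with MAFFT) came from GENCODE vM21 transcripts, with 28471 of 53619 symbols matched. Alternatives were RLE factors, no filter, DESeq2 1.42.0, other sample choices, the replicate number as a block and leaving out each library or sum. Named genes are the 6 members, the other Oas genes, up to 4 passing members of each pathway list by lowest p, and the 3 genes most correlated with each member at 10 CPM or more, leaving out numbered gene models. Members of lists that did not rank there are counted only. One pathway list is not reported here. The members and lists were chosen with earlier results of these data known. No member of the family reached 10 CPM on average in the granulosa pools, so likeness was computed in oocytes only.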

Additional observations from a re-analysis of the deposited data

Results flagged for a closer look

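Among 12 groups of 4 to 10 C57BL6 oocytes by gene, 3 had a highest oocyte far from the rest. In 10-month controls 1 of 6 oocytes had 610 CPM of Oas1c, with the next at 445 CPM, and 1 of 6 had 1.38 CPM of Oas1g, with the next at 0.394 CPM. In the 10-month resveratrol group 1 of 9 oocytes had 362 CPM of Oas1h, with the next at 299 CPM. Chance alone marks about 1 in 20 such groups.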

How the results depend on the processing

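Of the recomputed counts of passing members, 204 stayed within 1.5 times the reported count and 16 did not. Most comparisons had 0 passing members, and a 0 that stayed at 0 is among the 204. Of the recomputed values of single members 564 were the same in sign and call, or for C57BL6 ratios within the counting interval. Another 30 turned sign, 14 lost a call, 9 gained one, and 15 C57BL6 ratios fell outside their interval. Oas1d in old against young wild-type granulosa pools kept its direction and its call under all 10 alternatives (highest adjusted p 0.0425). Since it was near 0 in every old pool, this call could hardly go the other way. The number of members passing there was 1 rather than 2 with DESeq2, 1 with the replicate number as a block and 1 to 1 without each pool in turn, the lost member being Oas1e (adjusted p 0.180 with DESeq2 and 0.0785 with the block). In the knockout label the number was 0 with DESeq2 (0.0863 for Oas1d and 0.0949 for Oas1e), 0 in a model of those 2 groups alone (neither gene passed its low-count filter), 0 without the 5 shallow libraries, and 0 to 2 without each pool in turn. The wild-type age comparison cannot be made without those 5 libraries. The replicate block changed no other count. Same-numbered pools did not deviate together (correlations -0.12 to 0.15), so the numbers were not taken as pairs.

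In oocytes, sums by leading number passed 1 member for 6 against 2 months and 4 for 10 against 6 months, against 0 of each. The share of all genes passing with those sums was not computed. With those sums Oas1h was at 0.028 for 10 against 2 months, Oas1c at -0.0052 for genotype and Oas1d at -0.042 for the interaction, each opposite in sign to the reported value. Leaving out each group sum in turn turned the sign of small differences: Oas1c spanned -0.23 to 0.43 for 6 against 2 months, -0.52 to 0.15 for 10 against 2 months and -0.13 to 0.14 for genotype. Oas1d spanned -0.098 to 0.063 for resveratrol and -0.17 to 0.27 for the interaction. Oas1e spanned -0.051 to 0.17 for 10 against 2 months and -0.13 to 0.036 for resveratrol, and Oas1h -0.44 to 0.27 for 10 against 2 months and -0.079 to 0.18 for genotype. Oas1g between cell types was 0.030 with DESeq2 and spanned -0.71 to 0.28 without each condition, where 4 to 5 members passed. In granulosa pools without each pool in turn, Oas1a spanned -0.96 to 0.11 for resveratrol in wild type and -0.021 to 1.27 for the label with resveratrol, and Oas1e -2.15 to 1.54 for age by label. The causes were not tested.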

Other observations

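The C57BL6 oocyte whose title says resveratrol and whose treatment tag says control entered no group. The column taken for it by its number had 3117 CPM of Oas1d, 895 CPM of Oas1e, 521 CPM of Oas1c and 201 CPM of Oas1h.

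In the C57BL6 oocyte sums, compared with no test, Irf1, Socs1 and Xaf1 were past 2-fold between 6 and 10 months. They were the only such genes of the interferon receptor, signalling and interferon-stimulated lists, among 8 and 5 genes with at least 1 CPM. Over all genes 12.9% were past 2-fold there. Of Irf1 and Socs1, 1 was higher and 1 lower at 10 months, and Xaf1 was lower.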
